A study of Gallus gallus with 9 samples.

Results

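The genes described here are 7 chicken genes that bring iron into the cell, carry iron and glycine into the mitochondrion, build iron-sulfur clusters or sense iron: TFRC, STEAP3, SLC25A37, SLC25A38, GLRX5, ACO1 and IREB2. They were taken as every probe set of the Affymetrix chicken array whose platform annotation carries 1 of these symbols, which gave 15 of 38439 chicken probe sets. TFRC has 2 of them, STEAP3 has 3, SLC25A37 has 4, SLC25A38 has 2, IREB2 has 2, and GLRX5 and ACO1 have 1 each. Blood of chick embryos was drawn from the heart ventricles at embryonic day 4 (E4) or 6 (E6). A density gradient then gave red blood cells (RBCs) and, above them, the other cells of the blood (nRBCs). Each stage and fraction has 2 arrays, of separate pools of embryos, and 1 further array holds whole embryonic heart. The labels place that heart at E6, while its column heading says E4; it is treated here as E6. Probe sets of a gene are named by their mean signal in RBCs, from the brightest to the dimmest, and the plots of differences list them in that order.

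Red cell precursors use far more iron than most cells, because every heme of hemoglobin holds an iron atom. Transferrin delivers the iron to the transferrin receptor TFRC, the pair is taken into endosomes, and the ferrireductase STEAP3 reduces the iron so that it can leave the endosome. SLC25A37 (mitoferrin-1) then moves iron into the mitochondrion, where SLC25A38 imports the glycine that starts heme synthesis and the glutaredoxin GLRX5 passes on newly made iron-sulfur clusters. ACO1 and IREB2 encode the iron regulatory proteins IRP1 and IRP2. When iron is low, both bind iron-responsive elements in messenger RNAs such as those of TFRC and ferritin. When iron is plentiful, ACO1 holds an iron-sulfur cluster and works as a cytosolic aconitase, while IREB2 is degraded. The chick red cell keeps its nucleus, and the authors place these stages in the transition from primitive to definitive blood formation. These roles are known mainly from mammals and zebrafish.

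The values are MAS5 signals, the Affymetrix measure of brightness, on the log2 scale after quantile normalization over the 8 blood arrays, so a difference of 1 is a change of 2-fold. Each signal comes with a call of Present, Marginal or Absent. Between 22.4% and 29.4% of probe sets were Present on the RBC arrays, 34.0% to 36.0% on the nRBC arrays and 40.5% on the heart array. The fractions were checked against markers by summing linear normalized signals. The 15 leukocyte and thrombocyte genes summed to 453 to 2689 on the RBC arrays and 13483 to 23957 on the nRBC arrays. Of the 15, 12 were higher in nRBCs (adjusted p under 0.05), against 4.56% of all probe sets. The test also called 1 lower, against 0.809% of all. This was TREM2, which was Present on no array. ITGB2, 1 of the 12 called higher, was likewise Present on no array. The 12 red cell genes summed to 60741 to 77796 on the RBC arrays and 52417 to 80896 on the nRBC arrays. Of the 12, 0 passed the test (1 lower at an unadjusted p under 0.05, against 9.39% of all probe sets). The ranges of the fractions lay apart for the leukocyte genes and overlapped for the red cell genes through E6 nRBC replicate 1 alone, at 80896. The remaining nRBC arrays summed to 52417, 53112 and 56085, below every RBC array. The red cell sum includes globins such as HBAD (13.48 in RBCs, 13.32 in nRBCs), at levels where saturation can hide a difference. Of the 12 red cell differences 8 were below 0, beside 59.0% of all probe sets. The 12 ran from -1.43 (SPTB) to 1.14 (CA2, Present on 1 RBC and 2 nRBC arrays). The 20 cardiac muscle genes summed to 277 to 354 in RBCs, 1648 to 6464 in nRBCs and 74458 in the heart, with 17 of the 20 Present on no RBC array. The 14 fibroblast genes summed to 204 to 314, 3514 to 9510 and 29037, and the 12 endothelial genes to 329 to 783, 696 to 1279 and 1970. All 12 endothelial genes were Present on no RBC array. By the test 10 of the 20 cardiac, 9 of the 14 fibroblast and 5 of the 12 endothelial genes were higher in nRBCs. In these lists 0 were lower. Among all probe sets 4.56% were higher and 0.809% lower. For GAPDH the 3' probe set was 9.44 to 11.1 times as bright as the 5' one on the RBC arrays, 4.22 to 5.99 times on 3 nRBC arrays and 12.7 times on E6 nRBC replicate 1; this ratio grows with degradation of the RNA. That array also had the highest summed red cell signal of all arrays. On 3 arrays (replicate 2 of E4 RBC, of E6 RBC and of E4 nRBC) 188 to 257 signals were below 1, and on the remaining 5 blood arrays 1186 to 2173 were. The part of these properties in the differences that follow was not tested, beyond the values without single arrays and within these sets of arrays. In bulk RNA, fewer cells of a type and less RNA per cell cannot be told apart.

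The first comparison asks which of the 7 genes differ between nRBCs and RBCs. STEAP3 (by 2 of its 3 probe sets) and GLRX5 were lower in nRBCs, by 3.01-fold to 3.53-fold, and no gene of the 7 was higher by the test. Of the 15 probe sets, 3 were lower in nRBCs at an adjusted p under 0.05 (limma, Benjamini-Hochberg over all probe sets), against 0.809% of all probe sets, and 0 were higher, against 4.56%. At an unadjusted p under 0.05, 8 were lower and 1 was higher, against 9.39% and 10.2% of all. In 7 of the 15 every nRBC array lay below every RBC array, against 6.79% of all probe sets, and in 1, that of ACO1, every nRBC array lay above, against 7.97%. The 7 without overlap in the lower direction were all 3 of STEAP3 and 1 each of SLC25A37, SLC25A38, IREB2 and GLRX5. Over all probe sets the median difference was -0.20, and it moved to 0.02 without normalization between arrays. With median scaling all 3 calls were lost and SLC25A38 passed, and with the deposited series matrix 1 STEAP3 probe set kept its call and SLC25A38 was added. With any 1 array left out other than E6 nRBC replicate 1 the count was 0. Without E6 nRBC replicate 1 STEAP3 and GLRX5 kept their calls, and the count was 4. None of the 15 was called without normalization between arrays. Among all probe sets 311 were called lower in the main fit, 43 without normalization and 223 with median scaling.

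**Figure D1:**
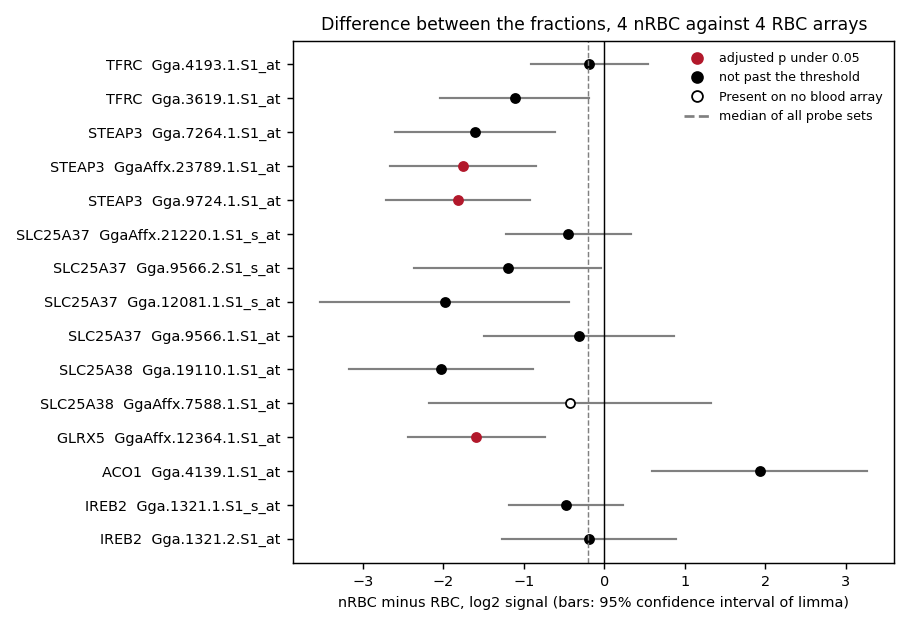
Difference in log2 signal between 4 nRBC and 4 RBC arrays for each of the 15 probe sets, with the 95% confidence interval of limma; the dashed line is the median of all probe sets, -0.20. The 3 probe sets past the threshold (2 of STEAP3 and that of GLRX5) lie between -1.59 and -1.82, and ACO1 is the only point above 0.

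TFRC, the entry point for transferrin iron, was bright in both blood fractions. By its brighter probe set it measured 13.14 and 13.04 on the E4 RBC arrays, 12.78 on both E6 RBC arrays, 12.56 and 12.93 on the E4 nRBC arrays and 12.96 and 12.55 on the E6 nRBC arrays. The fractions overlapped, and the difference of -0.19 (95% confidence interval -0.92 to 0.55, adjusted p = 0.799 from limma) did not pass. These signals ranked between 36 and 123 among all probe sets of their arrays and reached 43.0% to 67.4% of the highest signal, a range where saturation can hide a difference. The dimmer TFRC probe set was Present on 1 blood array, E4 nRBC replicate 2, and Marginal on another. It averaged 5.73 ± 0.57 in RBCs and 4.61 ± 0.39 in nRBCs (SD, n = 4, adjusted p = 0.177). Since it was Present on no RBC array, no fold is given.

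STEAP3 had no overlap between the fractions by any of its 3 probe sets, each Present on every blood array, and 2 of them passed. By the dimmest the RBC arrays measured 9.03 and 8.65 at E4 and 8.77 and 8.43 at E6. The nRBC arrays measured 7.02 and 6.04 at E4 and 7.39 and 7.15 at E6. The highest nRBC array, E6 replicate 1, lay below the lowest RBC array, E6 replicate 2. The difference was -1.82 (SE 0.40, adjusted p = 0.0311), or 3.53-fold. By the second the RBC arrays measured 9.51, 9.25, 9.54 and 10.15 and the nRBC arrays 7.49, 7.49, 8.62 and 7.81, in the order E4 replicates 1 and 2, E6 replicates 1 and 2. The difference was -1.76 (SE 0.40, adjusted p = 0.0368), or 3.39-fold. The brightest measured 10.36 ± 0.14 in RBCs and 8.75 ± 0.79 in nRBCs (SD, n = 4) and did not pass (difference -1.61, SE 0.44, adjusted p = 0.0764). Its nRBC values were 8.35, 8.19, 9.92 and 8.55, and the high one, 9.92, was E6 nRBC replicate 1. Without that array it passed (adjusted p = 0.0180). With each array left out in turn, the differences of the 3 probe sets stayed between -1.42 and -2.02. With the series matrix the dimmest did not pass (adjusted p = 0.0775) and the second did (adjusted p = 0.0370).

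SLC25A37, the mitochondrial iron importer of red cells, was bright in both fractions. By its brightest probe set it measured 13.24, 13.08, 13.25 and 13.20 on the RBC arrays and 12.72, 12.21, 13.14 and 12.92 on the nRBC arrays, in the same order of arrays. The nRBC values (SD 0.40) spread more widely than the RBC values (SD 0.07) and overlapped them through E6 nRBC replicate 1, and the difference of -0.45 (95% confidence interval -1.22 to 0.33, adjusted p = 0.520) did not pass. These signals ranked between 23 and 194 on their arrays. The second probe set measured 11.19, 11.20, 11.77 and 11.57 in RBCs and 9.49, 9.44, 11.57 and 10.43 in nRBCs (difference -1.20, SE 0.52, adjusted p = 0.240). The third, Present on 2 arrays of each fraction, had no overlap of the arrays and the largest difference of the gene, -1.98 (SE 0.69, adjusted p = 0.154). The dimmest differed by -0.31 (SE 0.52, adjusted p = 0.789). None of the 4 passed. The differences of the 4 ran from -0.31 to -1.98, and the 3 brightest correlated at 0.90 to 0.97 with each other over the 8 arrays.

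SLC25A38, the glycine importer of the mitochondrion, had the largest difference of the 7 genes, which missed the threshold. By its brighter probe set the RBC arrays measured 11.75 and 11.09 at E4 and 12.48 and 11.78 at E6. The nRBC arrays measured 9.95 and 8.50 at E4 and 10.25 on both arrays at E6. The lowest RBC array lay above the highest nRBC array. The difference was -2.04 (SE 0.51, adjusted p = 0.0524), or 4.10-fold, with a 95% confidence interval of -3.18 to -0.89. With the arrays' scale (many or few signals under 1) as a block it was -2.31 and passed (adjusted p = 0.0163). With each array left out in turn it stayed between -1.62 and -2.26 and did not pass (adjusted p-values of 0.0561 to 0.126). Without normalization between arrays it did not pass either (adjusted p = 0.0972). The dimmer probe set was Present on none of the 9 arrays and its levels are not compared.

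GLRX5, which hands on iron-sulfur clusters inside the mitochondrion, was lower in nRBCs. The RBC arrays measured 10.30 and 9.61 at E4 and 10.08 and 9.98 at E6, and the nRBC arrays 8.70 and 7.84 at E4 and 8.90 and 8.17 at E6. Every RBC array lay above every nRBC array. The difference was -1.59 (SE 0.38, adjusted p = 0.0440), or 3.01-fold. With each array left out in turn it stayed between -1.40 and -1.76, with adjusted p-values of 0.0496 to 0.123, and it passed only without E6 nRBC replicate 1. With stage as a covariate its adjusted p was 0.0554 and with the series matrix 0.0714.

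The iron sensors ACO1 and IREB2 are given next. ACO1 measured 7.54 and 7.83 on the E4 RBC arrays, 6.40 and 5.28 on the E6 RBC arrays, 8.92 and 8.53 on the E4 nRBC arrays and 8.09 and 9.25 on the E6 nRBC arrays. It was Present on all 8 arrays, and the lowest nRBC array exceeded the highest RBC array. The difference of 1.93 (SE 0.59, 95% confidence interval 0.60 to 3.27) did not pass (adjusted p = 0.110). It passed with 16 added to each signal before log2 (adjusted p = 0.0461), when probe sets with fewer than 2 Present calls in blood were left out (adjusted p = 0.0406) and with an intensity trend in limma (adjusted p = 0.0315). With each array left out in turn it did not pass (adjusted p-values of 0.0758 to 0.223), nor without normalization between arrays (adjusted p = 0.148). IREB2 was bright and even by its brighter probe set, at 12.18, 12.03, 12.22 and 12.06 in RBCs and 11.53, 11.42, 11.81 and 11.82 in nRBCs. Here the RBC arrays lay above the nRBC arrays, and the difference of -0.48 did not pass (95% confidence interval -1.19 to 0.23, adjusted p = 0.444). The dimmer IREB2 probe set overlapped (6.34 ± 0.59 in RBCs, 6.14 ± 0.71 in nRBCs, SD, n = 4, adjusted p = 0.863). ACO1 and IREB2 (its brighter probe set) were set against each other after their values were seen, so this is a description without a test. Within each array ACO1 minus IREB2 was -4.64, -4.21, -5.82 and -6.78 in RBCs and -2.62, -2.90, -3.72 and -2.57 in nRBCs. Each nRBC value was above each RBC value. This follows from the ranges of ACO1 and of IREB2 given above and adds no further result.

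**Figure D2:**
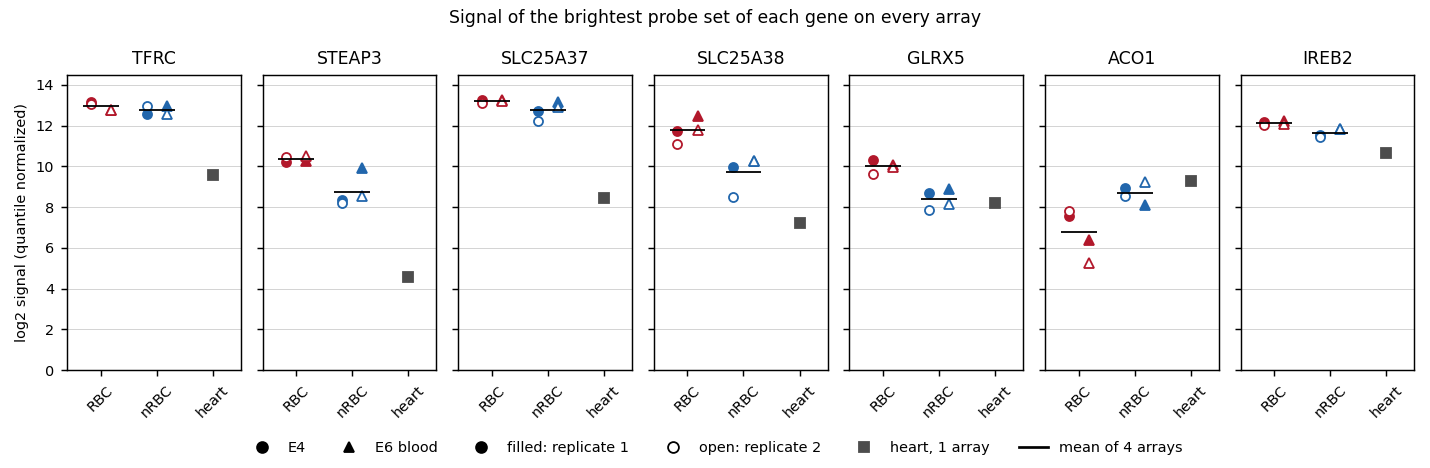
Log2 signal (quantile normalized) of the brightest probe set of each gene on the 4 RBC, 4 nRBC and 1 heart arrays; circles are E4, triangles E6, filled points replicate 1, open points replicate 2, squares the heart, and lines the mean of 4 arrays. TFRC and SLC25A37 sit near 13 in both fractions, and ACO1 runs opposite to STEAP3, SLC25A38 and GLRX5 from RBC to nRBC.

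At each stage alone, with 2 arrays against 2 in the model of 4 groups, 0 of the 15 probe sets passed at E4, where 1.51% of all probe sets passed (1.42% higher, 0.0937% lower). At E6 0 passed as well, against 1.68% of all (1.57% higher, 0.109% lower). At an unadjusted p under 0.05, 7 were lower in nRBCs at E4 and 4 at E6, against 5.04% and 5.83% of all. In the other direction 0 were higher at E4 and 1, ACO1, at E6, against 7.77% and 8.60% of all. ACO1 differed by 1.04 (SE 0.64) at E4 and by 2.82 (SE 0.64, adjusted p = 0.0972) at E6, while SLC25A38 differed by -2.19 and -1.88 and GLRX5 by -1.69 and -1.49.

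The second comparison asks whether the genes changed from E4 to E6. None of the 15 probe sets passed limma's threshold in RBCs, in nRBCs or in the difference between the fractions, and 0% of all probe sets passed in each of these contrasts. At an unadjusted p under 0.05, 1 was lower at E6 in RBCs (ACO1, against 4.26% of all) and 0 were higher (3.69%). In nRBCs 2 were higher (both of SLC25A37, against 2.32%) and 0 were lower (2.09%). The interaction gave 0 in either direction, against 2.74% and 2.55%. ACO1 in RBCs differed by -1.84 between E6 and E4 (SE 0.64, adjusted p = 0.527), from 7.54 and 7.83 to 6.40 and 5.28, while in nRBCs the difference was -0.06 (SE 0.64). The interaction, 1.79 (SE 0.91, 95% confidence interval -0.35 to 3.93), did not pass. All 4 SLC25A37 probe sets had both E6 nRBC arrays above both E4 nRBC arrays, with differences of 0.56 to 1.93. The 2 with an unadjusted p under 0.05 were the third (1.93, SE 0.76) and the second (1.53, SE 0.55). In RBCs the differences of the 4 ran from 0.06 to 0.95, and 3 of them had no overlap of the stages. Over all 15 probe sets both E6 arrays lay above both E4 arrays in 9 in nRBCs, against 17.1% of all probe sets, and in 5 in RBCs, against 19.1%. Both lay below in 0 in nRBCs, against 16.1%, and in 3 in RBCs, against 19.7%. The 9 include all 3 of STEAP3 (differences of 0.73 to 0.96). E6 nRBC replicate 1, which had the highest red cell signal, was the higher of both E6 nRBC arrays for every STEAP3 and SLC25A37 probe set. TFRC by its brighter probe set averaged 13.09 at E4 and 12.78 at E6 in RBCs and 12.75 at both stages in nRBCs.

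**Figure D3:**
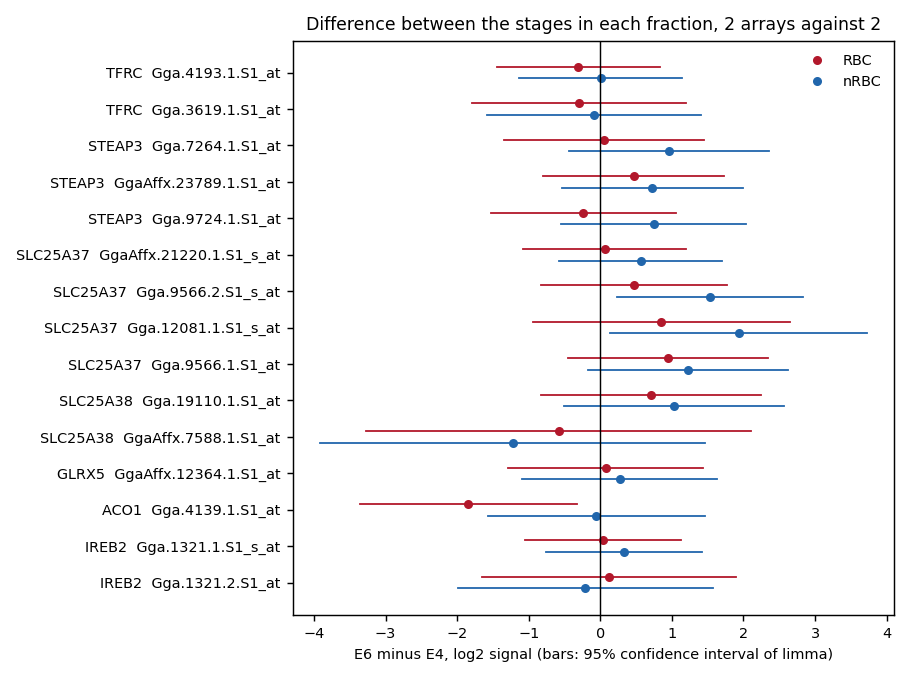
Difference in log2 signal between E6 and E4 in RBCs (red) and nRBCs (blue), 2 arrays against 2, for the 15 probe sets, with the 95% confidence interval of limma. Only ACO1 in RBCs and 2 SLC25A37 probe sets in nRBCs have intervals that leave out 0, and none passed after adjustment.

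The third comparison sets the heart array beside the blood fractions, without a test. On the heart array the 12 red cell genes summed to 9264, and the part of blood in the heart's levels was not tested. A probe set was counted when the heart differed from the mean of a fraction by more than 1 on the log2 scale and lay outside the range of its 4 arrays. By this rule the heart was below RBCs in 12 of the 15 probe sets, against 23.8% of all, and above in 1, that of ACO1, against 18.4%. It was below nRBCs in 10, against 15.1%, and above in 0, against 15.3%. With a difference of more than 2 the counts were 10 and 1 against RBCs (9.58% and 11.3% of all) and 10 and 0 against nRBCs (5.29% and 5.63%). Each count below blood includes the dimmer TFRC probe set, which was Absent in the heart and Present on 1 blood array. STEAP3 measured 4.58 in the heart by its brightest probe set, 55.3-fold below RBCs and 18.1-fold below nRBCs. By its dimmest, Absent in the heart, RBCs were at least 34.1-fold higher, a value that sets the RBC mean against the lowest Present signal of the heart array, or the probe set's own where higher, and is not a strict bound. SLC25A37 measured 5.13 in the heart by its second probe set, 78.8-fold below RBCs and 34.3-fold below nRBCs. By its brightest it measured 8.47 in the heart, 12.75 in nRBCs and 13.19 in RBCs. SLC25A38 measured 7.24, which is 23.2-fold below RBCs and 5.65-fold below nRBCs. TFRC measured 9.60 in the heart, 12.75 in nRBCs and 12.94 in RBCs. No fold is given for these bright probe sets of SLC25A37 and TFRC, since saturation in blood could make it too small. GLRX5 and IREB2 were closer. GLRX5 measured 8.19 in the heart against 8.40 in nRBCs and 9.99 in RBCs. IREB2 measured 10.67 in the heart, 11.65 in nRBCs and 12.13 in RBCs. ACO1 measured 9.26 in the heart, above the nRBC mean of 8.69 and the RBC mean of 6.76. In order of level, RBCs stood above nRBCs and nRBCs above the heart for the brightest probe set of every gene but ACO1, where the order was the reverse. Within that order the arrays of the blood fractions overlapped for TFRC and SLC25A37, and GLRX5 in the heart lay within the range of the nRBC arrays. ACO1 in the heart, at 9.26, lay barely above the highest nRBC array, at 9.25.

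Genes of iron handling were counted from 5 lists with 1 probe set per gene, chosen with earlier results of these arrays known. The lists include the 7 genes, so the results of these genes enter the counts again. ACO1 is the 1 gene higher at an unadjusted p under 0.05 both in iron transport and storage and in iron-sulfur proteins. Of 29 measured genes of iron transport and storage, 0 were higher and 0 lower in nRBCs and 29 did not pass (5 lower and 1 higher at an unadjusted p under 0.05). Over all probe sets 4.56% were higher and 0.809% lower by the test, and 10.2% and 9.39% at an unadjusted p under 0.05. The list's median difference was -0.16, beside -0.20 over all probe sets. Next to STEAP3, the lowest p belonged to SLC39A8, a transporter of zinc, manganese and iron, at 11.45 in RBCs and 10.13 in nRBCs (difference -1.32, SE 0.39, adjusted p = 0.0975). The following 5 genes were chosen after their values were seen, and none passed. FTH1, the ferritin heavy chain, measured 13.67 in both fractions and 12.86 in the heart, levels where saturation can hide a difference. ABCB10, a mitochondrial transporter that binds mitoferrin-1 in mice, measured 12.70 in RBCs, 12.46 in nRBCs and 8.10 in the heart. SLC25A28, the mitoferrin of other tissues, measured 5.17, 5.01 and 4.85. Transferrin itself (TF) measured 10.93, 10.68 and 10.75. The iron exporter SLC40A1 measured 5.30 and 5.19 in the blood fractions.

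Of 27 genes of iron-sulfur cluster assembly, 1 was lower (GLRX5), 1 was higher (ABCB8) and 25 did not pass. Among all probe sets 0.809% were lower and 4.56% higher. ABCB8, an ABC transporter of the mitochondrial inner membrane, was Present on 1 nRBC array and no RBC array and was by the bound described for the heart at least 4.23 times as bright in nRBCs (adjusted p = 0.0252). The list's median difference was -0.48, and 24 of the 27 differences were below 0, beside 59.0% of all probe sets. That share includes probe sets not detected in blood. Among the 15319 Present on at least 2 blood arrays the median difference was -0.08. Differences were below 0 for 21 of 29 genes of iron transport and storage, 17 of 27 iron-sulfur proteins, 7 of 9 genes of heme synthesis and 6 of 7 with an iron-responsive element. In the same order, 23, 22, 8 and 5 genes of these lists were Present on any blood array. With the probe set Present on most arrays, 5 of the 7 with an iron-responsive element were below 0. In 6 of the 27 assembly genes every nRBC array lay below every RBC array and in 1, ABCB8, above, beside 6.79% and 7.97% of all probe sets. Besides GLRX5 the 6 include, chosen after their values were seen, the scaffold ISCU (7.88 and 7.46), the cysteine desulfurase NFS1 (12.07 and 11.52), the cochaperone HSCB (8.57 and 7.58) and ISCA2 (9.67 and 9.19), none of which passed. HSPA9, the mitochondrial chaperone of the same step and chosen likewise, measured 12.58 and 12.54. Every nRBC array also lay below every RBC array in 6 of 27 iron-sulfur proteins and 5 of 9 genes of heme synthesis. The same held for 4 of 29 genes of iron transport and storage and 0 of 7 with an iron-responsive element. Every nRBC array lay above in 1, 2, 1 and 0 of these, in the same order.

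Of 27 proteins that carry an iron-sulfur cluster, 0 passed in either direction (4 lower and 1 higher at an unadjusted p under 0.05), with a median difference of -0.33. Among all probe sets 0.809% passed as lower and 4.56% as higher, and 9.39% and 10.2% at an unadjusted p under 0.05. ACO1 and the DNA helicase RTEL1 (5.98 and 4.71, adjusted p = 0.123 from limma) had the lowest p-values. RTEL1 was Present on 1 RBC and 2 nRBC arrays. FECH, the iron-sulfur enzyme that puts iron into heme, also chosen after its values were seen, measured 11.16 in RBCs, 10.02 in nRBCs and 5.80 in the heart (adjusted p = 0.125). Of 9 genes of heme synthesis and transport, 0 passed (4 lower and 2 higher at an unadjusted p under 0.05, beside 9.39% and 10.2% of all). SLC25A38 and UROD, the uroporphyrinogen decarboxylase, had the lowest p-values; UROD measured 12.46 and 11.11 (difference -1.36, SE 0.34, adjusted p = 0.0540). ALAS1, the housekeeping form of the first enzyme of the pathway, also chosen in this way, measured 7.43 in RBCs, 8.51 in nRBCs and 9.97 in the heart (adjusted p = 0.158). Of 7 measured genes whose messenger RNAs hold an iron-responsive element in mammals, 0 passed (2 lower at an unadjusted p under 0.05, beside 9.39% of all). The lowest p-values were those of CDC42BPA, Present on no blood array, and FTL (8.58 and 7.54, adjusted p = 0.240).

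**Figure D4:**
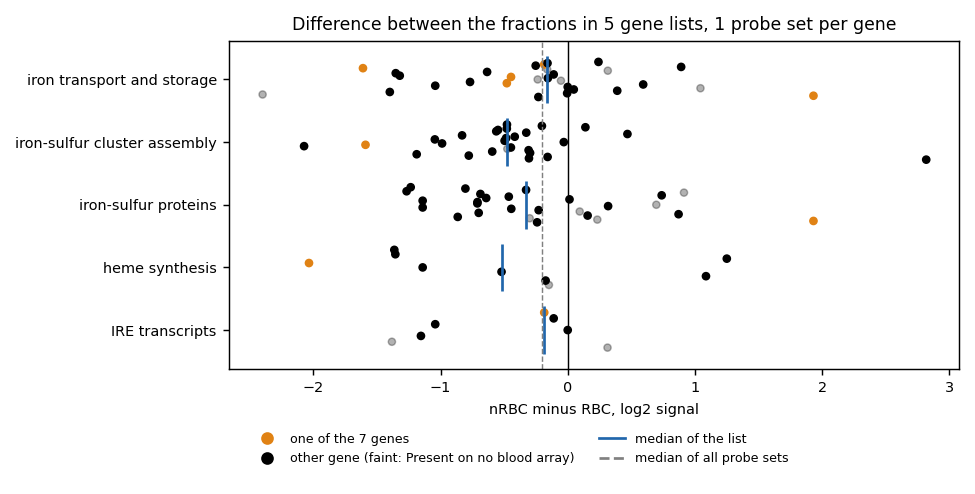
Difference in log2 signal between nRBC and RBC arrays for the genes of 5 lists, 1 probe set per gene; orange points are the 7 genes, faint points genes Present on no blood array, blue lines the median of each list and the dashed line the median of all probe sets, -0.20. The list medians run from -0.16 to -0.52, with ACO1 on the right and SLC25A38, STEAP3 and GLRX5 on the left of their lists.

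Over the 8 blood arrays the brightest probe sets of STEAP3, SLC25A37, SLC25A38, IREB2 and GLRX5 varied together, with Pearson correlations of 0.84 to 0.96 between any pair. TFRC correlated with these 5 at 0.16 to 0.54 and ACO1 at -0.57 to -0.77. The points share the difference between the fractions and the normalization, so these values are a description. Among 9833 probe sets with 1 symbol and Present on at least 4 blood arrays, the genes most like GLRX5 were ABCD4, GRTP1 and MRGBP (Pearson r = 0.99 each), and those most like SLC25A38 were CACUL1, SLC16A10 and IKZF1 (r = 0.99 each). Those most like STEAP3 were OSBPL6, NRBP2 and AHCYL1 (0.97 to 0.98). For SLC25A37 they were TAF4B, TCP11X2 and R3HDM2 (0.98 each), for IREB2 ARHGAP33, REV1 and ODC (0.98 to 0.99) and for ACO1 PPP2R3B, IQSEC1 and LTA4H (0.98 each). For TFRC, MAP3K3, PARD6G and EXOC3L1 correlated with it at 0.90 to 0.93.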

How the data were processed

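RNA of pooled embryos was amplified in 2 cycles, labeled and hybridized by the authors, whose deposited table holds MAS5 signal intensity values on a linear scale and, as other columns, a detection call per probe set. The deposited log2 values of the series matrix equal the log2 of these signals less a constant for each array (largest deviation 1.3e-06; column medians -0.25 to -0.14).

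Here 96 Affymetrix controls were left out, the 11 blood signals of 0 were set to 0.1, and the 8 blood arrays were quantile normalized on the log2 scale. The heart was mapped onto the same quantiles. Of the probe sets, 27168 had 1 symbol in the platform annotation, 177 several and 11094 none; 26853 gene IDs were found in the RefSeq table. All probe sets were fitted with limma 3.58.1 in R 4.3.3 (lmFit, eBayes; tested on simulated data): 4 nRBC against 4 RBC arrays with stages pooled (the methods used SAM and do not say how stages entered), and 4 group means for the stages. A call is an adjusted p (Benjamini-Hochberg, 38439 probe sets) under 0.05. The 2 arrays of a group are of separate pools, and no source used here says if the fractions of a stage shared embryos. The number of arrays limits the precision.

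The 7 genes, the lists and the tests were chosen with earlier results of these data known. Named besides the 7 genes were, per list, the genes that passed or else the 2 with the lowest p, and the 3 genes most correlated with each of the 7. Other genes named were chosen after their values were seen, as marked beside them. Folds against a group with no Present call use each array's lowest Present signal (2.03 to 3.11) or the probe set's own. Alternatives were other normalizations, 16 added to signals, a filter on Present calls, the series matrix, an intensity trend, replicate pairs, each array left out, the arrays' scale, a stage covariate, other thresholds and, for the lists, another probe set.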

Additional observations from a re-analysis of the deposited data

Results flagged for a closer look

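In 30 sets of 4 arrays (15 probe sets in 2 fractions) 1 array stood apart from the other 3: for SLC25A38 (brighter probe set) in nRBCs, E4 nRBC replicate 2 measured 8.50 against 9.95 for the nearest array, a gap of 0.831 of the whole range, just past the 95% critical value of Dixon's test. Chance marks about 1 in 20 such sets. Without that array the SLC25A38 difference between nRBCs and RBCs was -1.62 (adjusted p = 0.108 from limma).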

How the results depend on the processing

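The brightest probe sets of STEAP3, SLC25A37, SLC25A38, GLRX5, ACO1 and IREB2 kept their direction between the fractions in the 18 alternatives that alter a difference; the other 6 cannot. The count of probe sets lower in nRBCs was 3; it was 0 without normalization, 1 with median scaling (SLC25A38, with all 3 calls lost), 2 with the series matrix (the second STEAP3 probe set and SLC25A38), 0 at E4 alone, 0 at E6 alone, 0 within the 5 arrays with many signals under 1, 0 within the 3 with few, and 0 at an adjusted p under 0.01. It was 5 (all of STEAP3, SLC25A38 and GLRX5) with 16 added, with the filter on Present calls, with an intensity trend and at an adjusted p under 0.10; under the first 3 of these ACO1 made 1 probe set higher, against 0. With the scale of the arrays as a block it stayed 3, with SLC25A38 in place of the second STEAP3 probe set, and with a stage covariate it stayed 3, with SLC25A38 in place of GLRX5. Among all probe sets 311 were called lower in the main fit, 43 without normalization and 223 with median scaling. With 1 array left out the count for the iron genes was 0 to 4. With replicate numbers as a block it was 0, with adjusted p-values of 0.0821 for GLRX5 and 0.0503 for SLC25A38; deviations of same-numbered arrays correlated at 0.08 at E4 and -0.05 at E6 across the fractions and at 0.14 and -0.06 across the stages, so the numbers were not taken as pairs. The stage and heart counts stayed within 1.5 times of their values in every alternative run; the stage fits could not be run within the 3 arrays.

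Directions reversed only where differences were small. IREB2 by its dimmer probe set was 0.28 without normalization, 0.0072 with median scaling, 0.074 with the series matrix and -0.40 to 0.069 with 1 array left out. SLC25A37 by its dimmest was 0.14 without normalization and -0.63 to 0.10 with 1 array left out. SLC25A38 by its dimmer was 0.20 within the 3 arrays with few signals under 1, where TFRC by its brighter was 0.023, and -0.87 to 0.42 with 1 array left out. The cause was not tested. Weak signals limit the 2 probe sets of TFRC and SLC25A38 that were Present on 1 or no blood array. Saturation, which was not tested, can limit the brightest of TFRC and SLC25A37, and also FTH1 and the globins.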
